A study of Mus musculus with 6 samples.

Results

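Netrins and Slits are secreted guidance ligands, and the set described here held 4 of these ligands with 6 of their receptors. The ligands were Ntn4, Ntn1, Slit2 and Slit3, and the receptors were Neo1, Dcc, Unc5b, Unc5c, Robo1 and Robo2. All 10 were listed by name, among 54418 gene identifiers in the count table. Ntn4 was selected on its difference in counts between the KO and WT libraries described here, so its values are given as a description, with no test. The other 9 were listed for their place in the same pathways.

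Netrins are relatives of the laminins, the large proteins of basement membranes. Netrin-1 acts through neogenin, Dcc and the Unc5 receptors, whereas netrin-4 sits in basement membranes, where it binds laminins. Slit proteins act through Robo receptors. These families were first described as guides of growing axons, and in the mammary gland netrin-1 with neogenin, and Slit2 and Slit3 with Robo1, are known for their part in the organisation and branching of the ducts.

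RNA was sequenced from mammary epithelial cells of 3 WT (Glis2+/+) and 3 KO (Glis2-/-) female mice on the C57BL/6 background at 4 weeks of age, with 1 library per mouse. The deletion was carried in the germline, so every cell type of the KO gland lacked the intact gene, which encodes the zinc finger protein GLIS2. Cells were sorted by flow cytometry after staining for dead cells, for the blood, endothelial and immune cell antigens TER-119, CD31 and CD45, and for CD24 and CD49f. The comparison asked which transcripts differed between KO and WT cells.

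Total estimated counts lay between 24996524 and 31393917 per library. Glis2 itself had 671, 663 and 510 counts in WT replicates 1 to 3 and 252, 509 and 510 in KO replicates 1 to 3. In CPM, which are counts relative to library size with edgeR's TMM scaling, it ranged from 19.6 to 23.2 in WT and from 10.1 to 17 in KO, a log2 fold change of -0.57 (SE 0.22, edgeR adjusted p = 0.906). Glis2 was thus still counted in every KO library, and whether these counts fall outside the deleted part was not tested. The summed CPM of 10 basal epithelial markers was 4683 to 6011 in WT and 6398 to 7696 in KO, and that of 12 luminal markers was 4298 to 7243 in WT and 4228 to 7602 in KO. Markers of other cells were present too. The sum of 7 fibroblast markers lay between 2306 and 7768 in WT and between 2605 and 5919 in KO, and that of 8 endothelial markers between 138 and 723 in WT and between 207 and 727 in KO. WT replicate 2 and KO replicate 2 had the lowest fibroblast and endothelial sums of their genotypes. Sums of 7 pericyte markers (321 to 600), 6 adipocyte markers (55.8 to 317), 5 Schwann cell markers (270 to 440), 6 immune markers (18.1 to 68.7) and 5 skeletal muscle markers (5.74 to 41.8) were below the fibroblast sums. By genotype, the immune sum was 18.1 to 33.3 in WT and 32.7 to 68.7 in KO, and the pericyte sum was 338 to 600 and 321 to 460. No marker gene was at 0 in every library. In these bulk libraries, fewer cells of a type and less RNA per cell cannot be told apart.

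Ntn4, the basement membrane netrin, is the member that the set turns on. Its gene lies on the plus strand at chr10:93640681-93747207 (GRCm38), and the bases before its RefSeq start site are shown so that the promoter of this gene can be read beside its values. Neo1, on the minus strand at chr9:58874687-59036441, is shown beside it because it was the other member whose WT and KO libraries did not overlap. Each sequence is the 250 bases upstream of the start site, from RefSeq on GRCm38.p6, written 5′ to 3′ on the strand of the gene. They lie at chr10:93640799-93641048 and chr9:59036442-59036691. The Ntn4 stretch lies inside the gene span given above, since the RefSeq start site is downstream of the annotated gene start. Capitals mark matches of CCACCC, the core of the motif bound by the GLI and GLIS zinc finger family, and of TGGGGGG, a core of GLIS binding sites, on either strand.
Ntn4 promoter: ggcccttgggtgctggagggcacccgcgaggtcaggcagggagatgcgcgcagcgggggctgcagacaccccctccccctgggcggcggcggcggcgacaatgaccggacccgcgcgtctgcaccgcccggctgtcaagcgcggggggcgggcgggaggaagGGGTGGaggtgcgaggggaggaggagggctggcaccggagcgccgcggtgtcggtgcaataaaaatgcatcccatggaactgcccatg
Neo1 promoter: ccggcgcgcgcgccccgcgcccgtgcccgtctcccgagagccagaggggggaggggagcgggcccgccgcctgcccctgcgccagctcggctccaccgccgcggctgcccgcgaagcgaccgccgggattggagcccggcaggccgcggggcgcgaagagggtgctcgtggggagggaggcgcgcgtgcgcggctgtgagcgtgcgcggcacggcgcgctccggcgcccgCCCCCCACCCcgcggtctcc

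In Ntn4, the match was CCACCC on the opposite strand, read as GGGTGG, with its first base at -88 from the start site. In Neo1, TGGGGGG on the opposite strand began at -20 and overlapped CCACCC at -16. The search covered windows from 250 bases before to 50 bases after the start, on both strands, in 32851 promoters of 27025 genes. CCACCC was present in 31.5% of them and in 5 of 10 promoters of the members. TGGGGGG was present in 8.47% of all promoters and in 2 of 10 promoters of the members, those of Neo1 and Slit3. The longer GLI motif GACCACCCA, which contains CCACCC, was present in 0.253% of all promoters and in 0 of 10 of the members. TGGGGGG also overlapped GGGCGG, the core of SP factor sites, in both Neo1 and Slit3. These are matches of letters, and no binding was measured.

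The GC content of the promoters differed between the members. The Ntn4 window had 72.0% GC and 31 CpG dinucleotides, against a median of 52.7% and 7 over all promoters, and 93.1% of promoters had a lower GC content. Neo1 had 82.7% GC with 54 CpG, more GC than 99.6% of promoters. Slit3 (78.3%), Unc5b (69.7%), Unc5c (68.3%), Slit2 (68%) and Robo1 (57.0%) followed, while the 3 Robo2 promoters had 65.0%, 53.3% and 45.0%. GGGCGG matched the Ntn4 window at -170, -127, -105 and -101, the last pair overlapping. It was present in 5 of 10 promoters of the members and in 35.7% of all promoters. Of the 10 genes, 8 had a promoter entry, while Ntn1 and Dcc had none.

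Ntn4 had 919, 1161 and 694 counts in WT replicates 1 to 3, and 1255, 2420 and 1683 in KO replicates 1 to 3. The corresponding levels were 29.8, 40.6 and 26.6 CPM in WT and 50.2, 80.8 and 53.8 CPM in KO. Every KO library was thus above every WT library, with the lowest KO value next to the highest WT value, and KO replicate 2 stood highest. The means were 32.4 ± 7.35 CPM (SD, n = 3) in WT and 61.6 ± 16.7 CPM (SD, n = 3) in KO. This was a log2 fold change of 0.93 (SE 0.22), a ratio of 1.90. Because the gene was chosen by this difference, it carries no test here.

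With each library left out in turn, the difference in Ntn4 lay between 0.68 without KO replicate 2 and 1.13 without WT replicate 2 (log2). Its direction could not turn, since the genotypes did not overlap. In TPM, a relative level that accounts for transcript length, Ntn4 was at 1.82, 2.68 and 1.89 in WT and 3.23, 4.40 and 3.03 in KO, and the genotypes again did not overlap. The number of counts per TPM, which reflects the transcript length that the estimate assigned, varied by a factor of only 1.01 for Ntn4 after scaling between libraries. The deposited estimates therefore assigned Ntn4 nearly the same length in all 6 libraries. Each of the 3 annotated genes that overlap Ntn4 (Gm15915, Gm15963 and Gm8580) had at most 13 counts in a library.

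**Figure D1:**
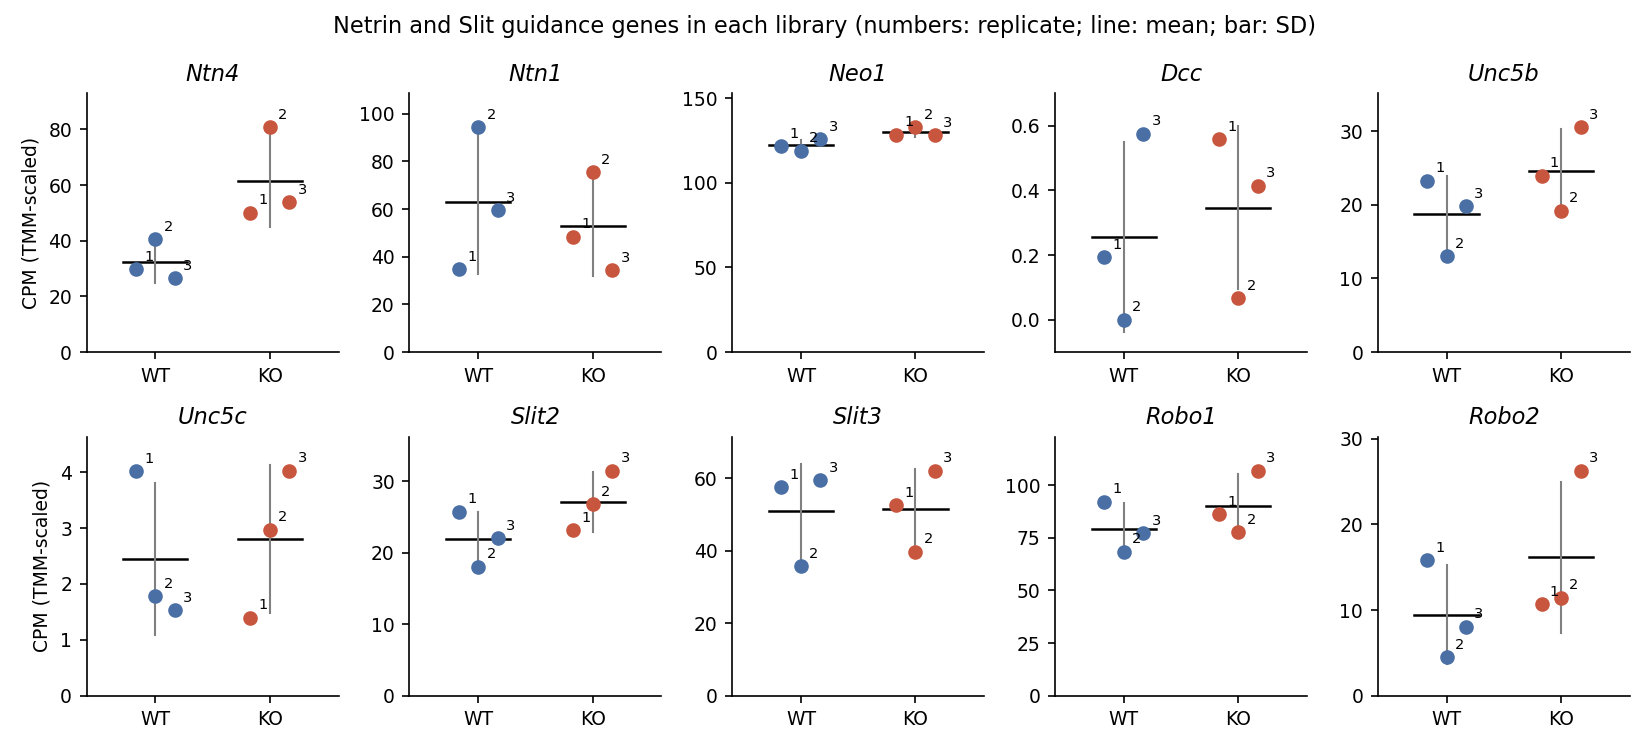
Level of each netrin and Slit guidance gene in CPM (TMM-scaled, linear axis) in the 3 WT (blue) and 3 KO (red) libraries. Points are libraries numbered by replicate, horizontal lines are means and vertical bars are SD. Ntn4 in KO (50.2 to 80.8 CPM) lies above WT (26.6 to 40.6 CPM), Neo1 is nearly level in all 6 libraries, and the other 8 genes overlap between genotypes.

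As a sum, basal epithelial markers were higher in KO, as Ntn4 was. Their sum was 6011, 5540 and 4683 CPM in WT and 6684, 6398 and 7696 CPM in KO, without overlap and 1.28 times higher in KO. The log2 fold change of all 10 basal markers was above 0, beside 51.6% of all genes tested. Of the 10, 6 had an unadjusted edgeR p under 0.05, beside 1130 of 21236 genes tested. After adjustment over all genes, 0 of 10 were called. Scaled to the basal sum, Ntn4 was at 4.95, 7.33 and 5.69 per 1000 CPM of basal markers in WT and 7.50, 12.6 and 6.99 in KO. On this scale the genotypes overlapped, since KO replicate 3 was below WT replicate 2, and the mean log2 value was 0.56 higher in KO. Scaled to the luminal sum, Ntn4 was at 6.93, 5.61 and 4.38 per 1000 CPM in WT and 7.83, 10.6 and 12.7 in KO, without overlap and 0.88 higher in KO as a mean log2 value. Both scalings were chosen after the data were seen. Within each genotype, Ntn4 was highest in replicate 2, the library with the lowest fibroblast and endothelial sums. After removal of the genotype means, Pearson's r of Ntn4 with the log2 sums was -0.04 for basal and 0.60 for luminal markers. It was -0.88 for fibroblast and -0.86 for endothelial markers. The part of these cell types in the level of Ntn4 was not tested.

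**Figure D2:**
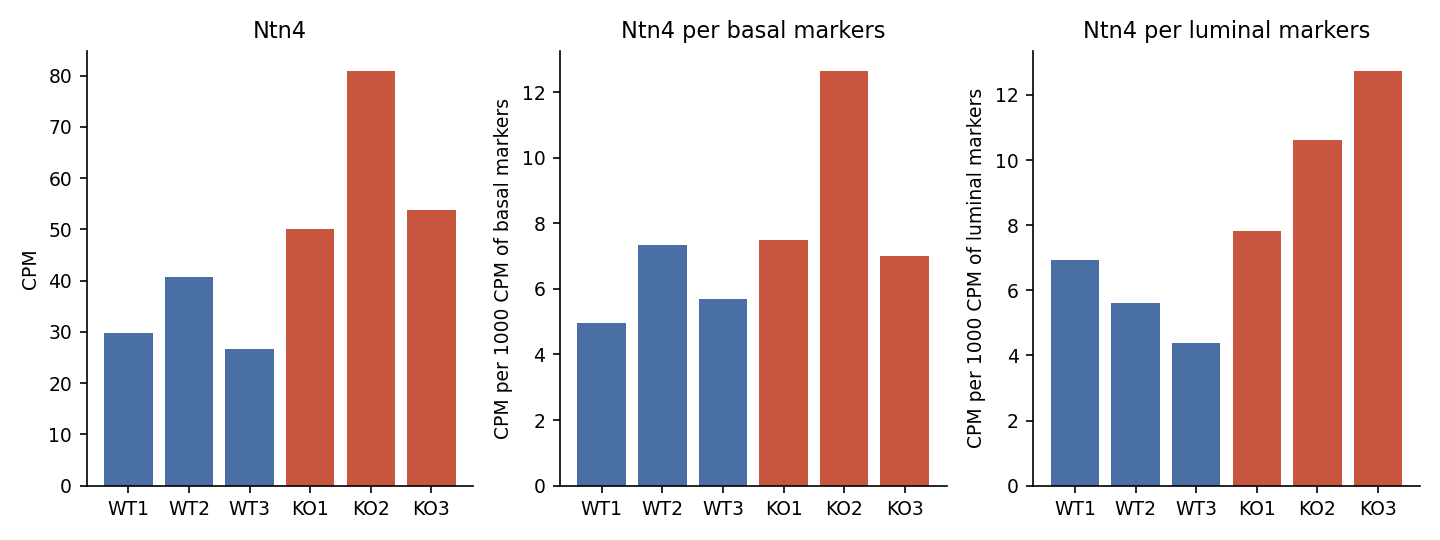
Ntn4 in each WT (blue) and KO (red) library, as CPM (left), per 1000 CPM of summed basal epithelial markers (middle) and per 1000 CPM of summed luminal markers (right). Bars are single libraries on axes from 0. The genotypes do not overlap in the left and right panels, but in the middle panel KO replicate 3 (6.99) lies below WT replicate 2 (7.33).

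Ntn1, the ligand of neogenin, Dcc and the Unc5 receptors, was the member whose fitted difference went the other way. It lies on the minus strand at chr11:68209364-68400823. Ntn1 was at 34.8, 94.3 and 59.4 CPM in WT (1074, 2695 and 1549 counts) and at 48.5, 75.4 and 34.4 CPM in KO (1213, 2258 and 1077 counts). The ranges overlapped almost entirely, with replicate 2 the highest of each genotype. The log2 fold change was -0.25 (SE 0.37, 95% interval -1.11 to 0.60, edgeR adjusted p = 0.974), and it turned to 0.17 with WT replicate 2 left out. The spread within genotypes was wide, larger than for 97.3% of the genes at a similar level.

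The libraries at the extremes of Ntn1 were those at the extremes of the luminal markers. Both WT replicate 1 and KO replicate 3, with the lowest luminal sums (4298 and 4228 CPM), had the lowest Ntn1. WT replicate 2 and KO replicate 2, with the highest luminal sums (7243 and 7602 CPM), had the highest Ntn1. Over the 6 libraries, Pearson's r of Ntn1 with the log2 marker sums was 0.92 for luminal, -0.95 for endothelial and -0.93 for adipocyte markers. The part of these cell types in the level of Ntn1 was not tested. Of the summed TPM of Ntn4 and Ntn1, Ntn4 made up 55.8%, 37.8% and 37.9% in WT and 54.4%, 59.5% and 68.4% in KO. These shares overlapped between genotypes, because WT replicate 1 was above KO replicate 1.

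Slit2 and Slit3, ligands of the Robo receptors, did not pass the test. Slit2, on the plus strand at chr5:47983138-48307733, was at 25.7, 18 and 22.0 CPM in WT and 23.1, 26.7 and 31.4 CPM in KO. KO replicates 2 and 3 were above all WT libraries, but KO replicate 1 was below WT replicate 1. The log2 fold change was 0.31 (SE 0.19, 95% interval -0.12 to 0.73, edgeR adjusted p = 0.934). It was 0.17 without KO replicate 3 and 0.0034 in log2(TPM + 1). Slit3, on the plus strand at chr11:35121224-35708507, was at 57.5, 35.7 and 59.4 CPM in WT and 52.5, 39.7 and 62.1 CPM in KO. Its means were almost level, 50.9 ± 13.2 CPM (SD, n = 3) in WT and 51.4 ± 11.2 CPM (SD, n = 3) in KO. Its log2 fold change was 0.02 (SE 0.23, 95% interval -0.50 to 0.53, edgeR adjusted p = 0.998), and its sign turned negative in TPM and without WT replicate 2 (-0.18) or KO replicate 3 (-0.16).

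Neo1, the gene of neogenin, was the most abundant and the steadiest member. It was at 121.7, 118.9 and 125.6 CPM in WT (3754, 3397 and 3272 counts) and at 128.4, 132.8 and 127.9 CPM in KO (3213, 3977 and 4004 counts). Every KO library was above every WT library, but by a small margin. The means were 122 ± 3.35 CPM (SD, n = 3) and 130 ± 2.67 CPM (SD, n = 3), with a log2 fold change of 0.09 (SE 0.09, 95% interval -0.11 to 0.29, edgeR adjusted p = 0.949). An exact two-sided permutation test of log2 CPM gave p = 0.1, the smallest that 3 against 3 libraries can give. Any gene without overlap gives this value, so the test adds nothing to the lack of overlap. In log2(TPM + 1) the difference was -0.09 and the genotypes overlapped, on a scale where the median difference of all genes was -0.06. Within genotypes, the SD of log2 CPM was 0.035, against a median of 0.132 over 2759 genes at a similar level, of which 0.761% had a smaller SD.

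Dcc, the classical netrin-1 receptor of axons, was close to undetected. It had 6, 0 and 15 counts in WT and 14, 2 and 13 counts in KO, among at least 24996524 counts per library. Its log2 fold change of 0.43 had an SE of 1.31 (95% interval -2.56 to 3.43, edgeR adjusted p = 0.985), so no difference was detectable at this depth. The value turned to -0.15 without WT replicate 2 and to -0.077 without KO replicate 1. Neo1 made up 99.8% to 100% of the summed TPM of the pair in every library.

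Unc5b and Unc5c, which encode repulsive netrin receptors, differed in level from each other, but neither passed the test between genotypes. Unc5b, on the minus strand at chr10:60762593-60831581 and known for its expression in endothelium, was at 23.3, 13.0 and 19.8 CPM in WT and 23.9, 19.2 and 30.5 CPM in KO. Its log2 fold change was 0.39 (SE 0.25, 95% interval -0.19 to 0.97, edgeR adjusted p = 0.940), and it was 0.19 without KO replicate 3. Unc5c, on the plus strand at chr3:141465216-141834924, was at 4.02, 1.79 and 1.54 CPM in WT and 1.40, 2.97 and 4.03 CPM in KO. Each genotype held both low and high Unc5c libraries. Its log2 fold change of 0.19 (SE 0.54, 95% interval -1.03 to 1.42, edgeR adjusted p = 0.982) turned to -0.17 without KO replicate 3 and to -0.050 without WT replicate 3, and it was negative in TPM. Unc5b made up 73.5% to 96.2% of the summed TPM of the pair.

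Robo1 and Robo2 encode the Slit receptors. Robo1, on the plus strand at chr16:72308306-73046095, was at 92.1, 68.4 and 77.2 CPM in WT and 86.0, 77.6 and 106.8 CPM in KO. The genotypes overlapped, and the log2 fold change was 0.19 (SE 0.16, 95% interval -0.17 to 0.54, edgeR adjusted p = 0.941). Without KO replicate 3 it was 0.03, and without WT replicate 1 it was 0.29. Robo2, on the minus strand at chr16:73891839-74411825, was at 15.8, 4.52 and 8.06 CPM in WT and 10.7, 11.5 and 26.3 CPM in KO. Its log2 fold change of 0.77 was the next in size after that of Ntn4, but its SE was 0.49 (95% interval -0.36 to 1.90, edgeR adjusted p = 0.940). A single library of each genotype set much of this value, which was 0.21 without KO replicate 3 and 1.35 without WT replicate 1. Robo2 is also the member whose counts per TPM varied most between libraries, by a factor of 3.29, with 13 annotated transcripts. Unc5c (3.14) and Slit2 (1.84) varied by over 1.5 as well, so for these 3 genes CPM and TPM can order the libraries differently.

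With edgeR, 0 of 21236 genes tested were called with thresholds of 0.05 on the adjusted p and 0.58 on the size of the log2 fold change, a background of 0%. The smallest adjusted p was 0.392, and 1130 genes had an unadjusted p under 0.05. All 10 members were tested, and 0 of the 9 other than Ntn4 were called, the smallest unadjusted p among them being 0.134. With DESeq2 and apeglm at the same thresholds, 45 of 27248 genes were called, 36 of them higher in KO (0.132%). Ntn4 was 1 of those 36, and this is the contrast that chose it, so nothing is read from it. None of the other 9 members was called by DESeq2. WT and KO libraries did not overlap for 11.7% of all genes tested and for 1 of the 9 members other than Ntn4, which was Neo1. Ntn4 did not overlap either, but it was chosen by this contrast. The median log2 fold change was 0.19 over the 9 other members and 0.01 over all genes tested. Of the 9, 8 were above 0, beside 51.6% of all genes, but 5 of 9 were above 0 on each of 3 TPM scales and 6 of 9 without KO replicate 3.

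**Figure D3:**
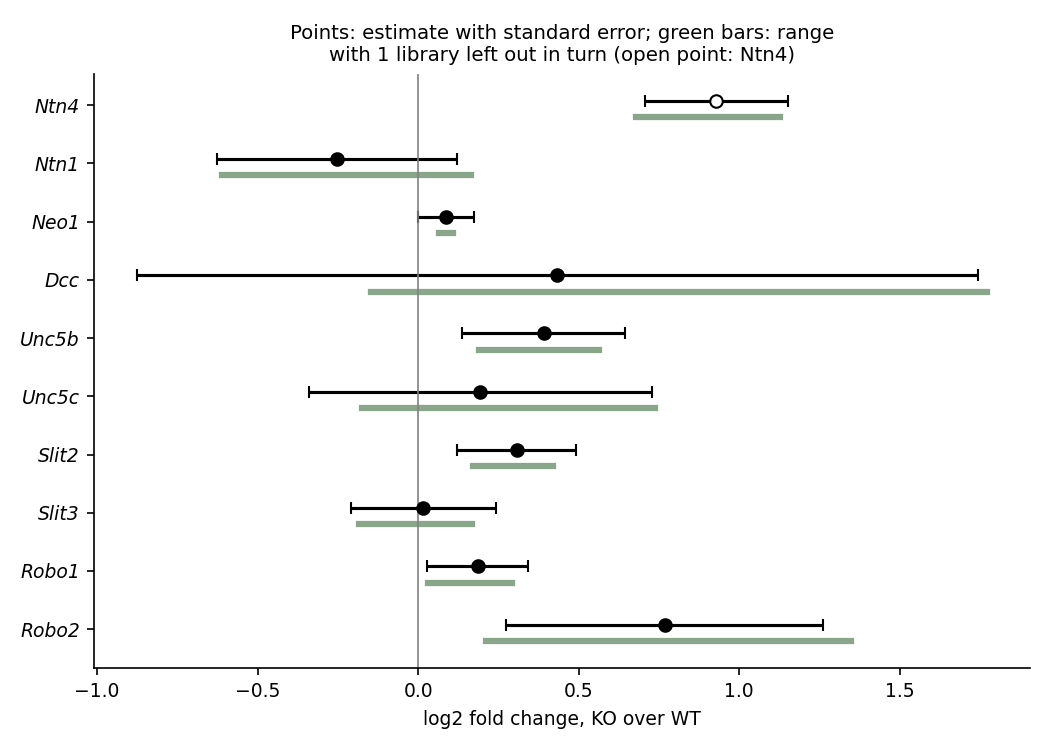
Log2 fold change of each member, KO over WT, from edgeR. Points with bars are the estimate and its SE, green bars span the values with 1 library left out in turn, and the open point is Ntn4, which was chosen for this difference. Ntn4 lies at 0.93, Robo2 at 0.77 with a wide bar, and Ntn1 at -0.25; 0 of the 9 filled points were called.

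The levels of the members were compared with each other in TPM, since it accounts for transcript length. The medians over all 6 libraries were 5.75 for Neo1, 3.19 for Robo1, 2.86 for Ntn4, 2.85 for Ntn1, 2.74 for Slit3, 1.84 for Slit2, 1.08 for Robo2, 0.945 for Unc5b, 0.104 for Unc5c and 0.00602 for Dcc. The median over all tested genes was 1.22. A single gene annotated as a miRNA, Gm23935, held 83.0% to 85.7% of all TPM, so these levels are low in absolute terms for all other genes. Neo1 ranked first, Unc5c 9th and Dcc 10th in 6 of 6 libraries. The lowest Neo1 value, 5.20, was above the highest value of any other member, 4.41 for Ntn1 in WT replicate 2. Between them the neighbours overlapped: Robo1, Ntn4, Ntn1 and Slit3 changed places from library to library, as did Robo2 and Unc5b. With TPM rescaled without Gm23935, 7 of 10 members kept their place in the order, and Slit3 moved above Ntn4 and Ntn1. Robo1 made up 67.3% to 82.8% of the Robo pair, and Slit3 42.6% to 65.9% of the Slit pair.

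**Figure D4:**
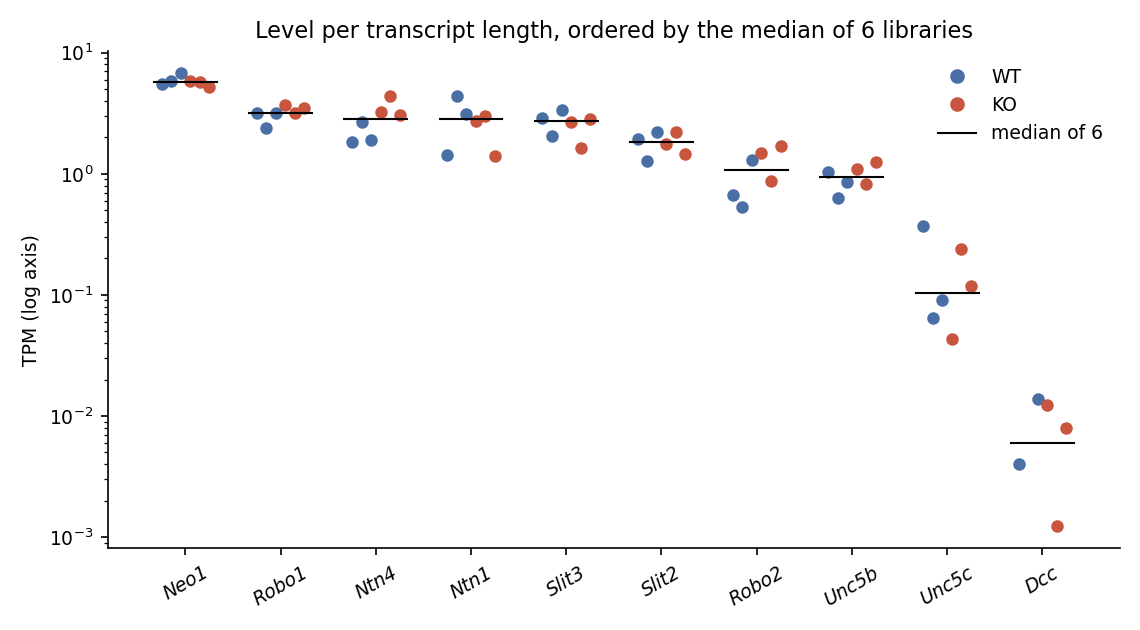
TPM (log axis) of each member in the 3 WT (blue) and 3 KO (red) libraries, ordered by the median over the 6 libraries. Lines are medians, and Dcc in WT replicate 2 is at 0 and is not drawn. Neo1 (5.20 to 6.75 TPM) lies above all other members, and Unc5c and Dcc lie below them.

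Several members shared their lowest and highest library, a pattern seen after the values were known, while the order of the libraries in between differed. Unc5b, Slit2, Slit3, Robo1 and Robo2 were each lowest in WT replicate 2 and highest in KO replicate 3, and 1226 of 21236 genes tested (5.77%) had the same extremes. Ntn1 had the reverse, highest in WT replicate 2 and lowest in KO replicate 3, as did 895 genes (4.21%). WT replicate 2 had the lowest sums of endothelial (138 CPM) and fibroblast markers (2306 CPM), and KO replicate 3 the highest endothelial sum (727 CPM). Immune markers, although low, had the same extremes as the members, with 18.1 CPM in WT replicate 2 and 68.7 CPM in KO replicate 3. Slit3 was at 35.7 and 39.7 CPM in the replicates 2 of WT and KO, the libraries lowest in fibroblast and endothelial markers, and at 52.5 to 62.1 CPM in the other 4. The part of these cell types in the levels of the members was not tested.

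**Figure D5:**
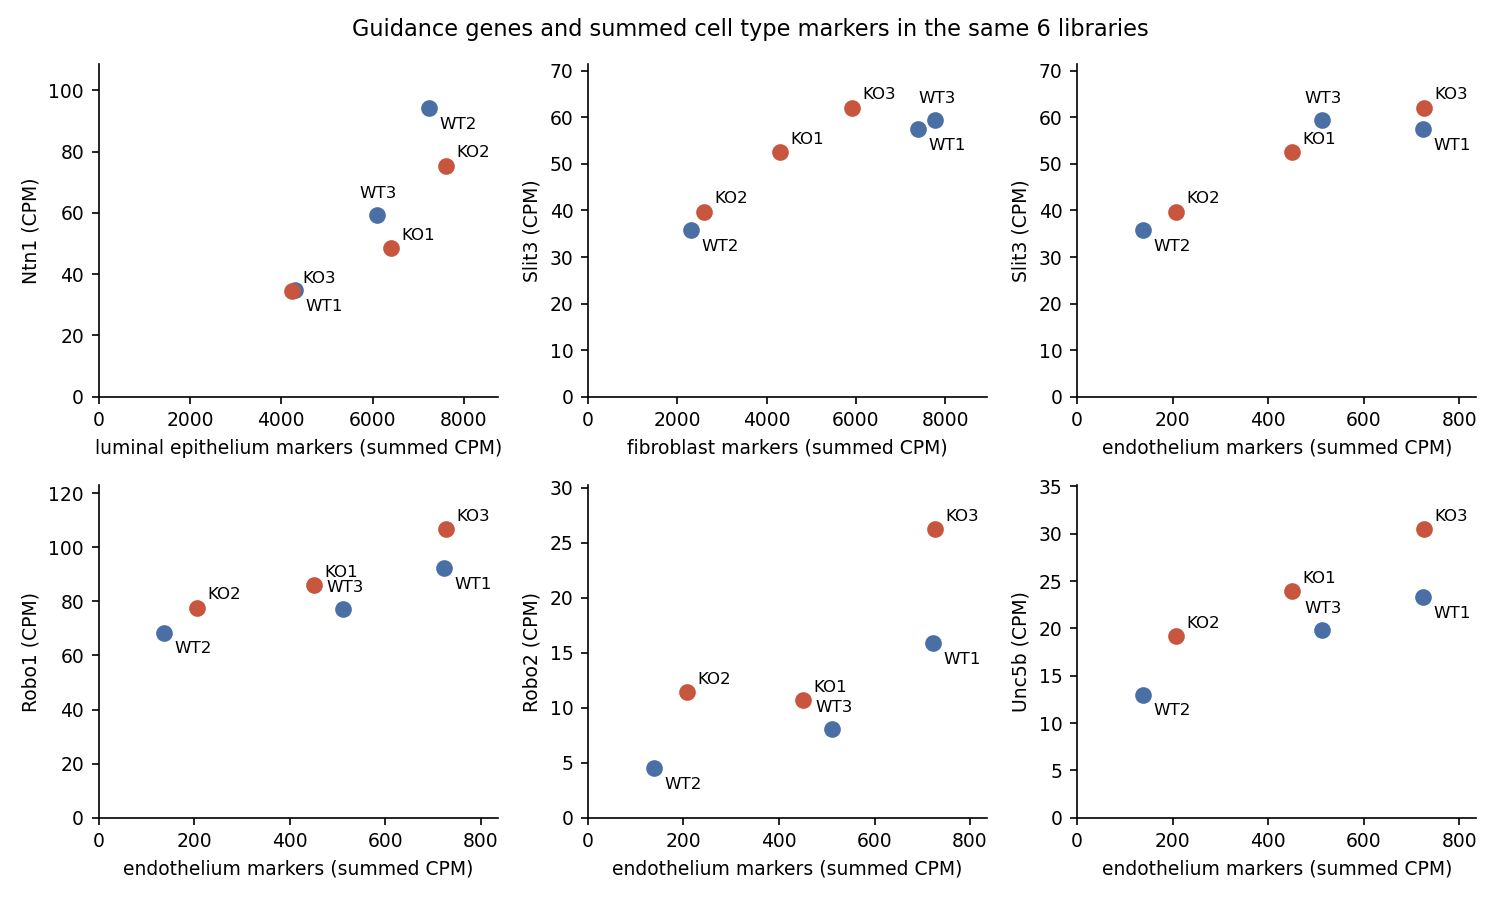
Level of Ntn1, Slit3, Robo1, Robo2 and Unc5b (CPM) against the summed CPM of luminal, fibroblast or endothelial markers in the same 3 WT (blue) and 3 KO (red) libraries. Each point is 1 library. Ntn1 is highest in the libraries with the highest luminal sums, and Slit3 is lowest in WT replicate 2 and KO replicate 2, which have the lowest fibroblast and endothelial sums.

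The genes most like Ntn4 in their level over the 6 libraries were sought among 9926 tested genes with a mean of at least 10 CPM, by Pearson's r of log2 CPM. They were Fam214a (r = 0.990), Zfp266 (r = 0.988), Sbk1 (r = 0.987), Ston1 (r = 0.983) and 0610030E20Rik (r = 0.980). After removal of the genotype means, r was 0.983, 0.969, 0.963, 0.991 and 0.995 in the same order. These values describe 6 libraries that share depth and cell mixture with each other, and the genes were picked as the highest of the search.

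Further genes of the same pathways were taken from lists written out with earlier results of these data known. Of 17 other netrin, Slit and co-receptor genes, 13 were tested and 0 were called, with 7 above and 6 below 0 and a median log2 fold change of 0.05. Unc5a, another Unc5 receptor, was at 1.54 ± 0.64 CPM (SD, n = 3) in WT and 3.61 ± 1.36 CPM (SD, n = 3) in KO (log2 fold change 1.22, SE 0.49, edgeR adjusted p = 0.906). Flrt3, an adhesion protein that binds Unc5 and Robo receptors, was at 14.8 ± 0.74 CPM in WT and 11.6 ± 1.35 CPM in KO (SD, n = 3 each), with a log2 fold change of -0.34 (SE 0.18, edgeR adjusted p = 0.919). Mcam, an adhesion molecule reported as a netrin-1 receptor, had the highest mean of the list (75.9 CPM) and a log2 fold change of -0.04. Ntn5, Slit1, Robo3 and Unc5d were too low to be tested.

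Of 24 intracellular partners, all were tested and 0 were called, with 13 above and 11 below 0, a median of 0.03 and 0 with an unadjusted p under 0.05. The adaptor Nck2 (log2 fold change 0.17, SE 0.15) and the Rac activator Dock1 (0.10, SE 0.09) had the smallest p, both with an edgeR adjusted p of 0.943. Trio, a guanine nucleotide exchange factor, had the highest mean (271 CPM) and a log2 fold change of 0.02.

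Basement membrane laminins, nidogens and integrins, among which netrin-4 is found, numbered 18, and 0 of 18 were called, with 9 above and 9 below 0 and a median of 0.04. Lamc3, a laminin γ chain, was at 3.39 ± 1.97 CPM in WT and 8.88 ± 3.17 CPM in KO (SD, n = 3 each), with a log2 fold change of 1.39 (SE 0.52, edgeR adjusted p = 0.906). Lamc1, the γ chain that netrin-4 binds, was the most abundant of the list at 862 CPM, with a log2 fold change of -0.00086. Of the 18 genes of this list, 3 had libraries that did not overlap, beside 11.7% of all genes.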

How the data were processed

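The authors sorted the cells, prepared stranded total RNA libraries from 1 ng of RNA and estimated transcript abundance with Salmon (version 1.2.1) on the mouse transcriptome with the mm10 genome as decoy. They deposited estimated counts per gene, which are whole numbers without normalization, and TPM values as log2 with an offset of 1. Other experiments of the study were not analysed here. Of 54418 identifiers, 54166 were matched to GENCODE M21 for symbols and positions. The 252 others kept their identifiers. Members and gene lists were chosen with earlier results of these data known.

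Estimated counts were tested with edgeR 4.0.16 (quasi-likelihood test, filterByExpr, TMM, Benjamini-Hochberg adjustment over 21236 genes) in R 4.3.3. Alternatives were DESeq2 1.42.0 with apeglm 1.24.0, limma 3.58.1 on log2(TPM + 1), another filter or scaling, a replicate block and each library left out. The fits were tested on simulated data. Named from each list were genes called, otherwise the 2 with the smallest p at a mean of at least 1 CPM and the most abundant; 1 gene so named is not reported here. The depth of at least 24996524 counts bounds the precision for Dcc. Replicate numbers named mice and were not stated to pair them. The p-values set the difference between genotypes against the spread between mice.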

Additional observations from a re-analysis of the deposited data

How the results depend on the processing

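The number of genes called was 45 with DESeq2 and apeglm, 40 without a filter on low counts, 1 with log2(TPM + 0.1) in limma and 1 with TPM rescaled without Gm23935. It was 0 with all other alternatives, with each library left out (0 to 0) and with a replicate block. The members other than Ntn4 gave 0 calls under all alternatives, with each library left out (0 to 0) and with the replicate block (0). The replicate numbers were not stated to pair the mice. The correlations of same-numbered libraries were -0.02, 0.17 and 0.02, which cannot settle whether they do. The replicate block gave 0.92 for Ntn4. The log2 fold change of Ntn4 was 0.54 with log2(TPM + 1) and 0.56 per basal markers, a scaling added after the data were seen, and it ranged from 0.68 to 1.13 with each library left out. With log2(TPM + 1), 1 member in place of 2 had libraries without overlap.

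Directions reversed for some members other than Ntn4. With log2(TPM + 1), log2(TPM + 0.1) and rescaled TPM, Neo1 was at -0.095, -0.11 and -0.011, Unc5c at -0.046, -0.16 and -0.10, and Slit3 at -0.16, -0.22 and -0.12, while the median of all genes was -0.064, -0.14 and -0.053. Relative to these medians Neo1 was at -0.031, 0.030 and 0.042, so its sign depends on the scaling. With the library in parentheses left out, Ntn1 ranged from -0.61 (KO replicate 2) to 0.17 (WT replicate 2), Dcc from -0.15 (WT replicate 2) to 1.77 (WT replicate 3), Unc5c from -0.17 (KO replicate 3) to 0.74 (WT replicate 1), Slit3 from -0.18 (WT replicate 2) to 0.17 (KO replicate 2), Unc5b from 0.19 (KO replicate 3) to 0.56 (WT replicate 1) and Slit2 from 0.17 (KO replicate 3) to 0.42 (WT replicate 1). Of 125 alternatives for the members other than Ntn4, all without a call, 109 kept the direction and 16 reversed, but the size of some crossed 0.58, as for Robo2 at 0.36 with log2(TPM + 1). The 109 include apeglm, which shrank every other member to a size of at most 2.34e-05. The cause was not tested. Dcc had no value with at least 10 counts in every library.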

Other observations

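Further families of guidance genes were read from lists written with earlier results of these data known. Of 18 semaphorins with their receptors, 0 were called by edgeR, 12 were above and 6 below 0, and the median log2 fold change was 0.07. Plxna4, a semaphorin receptor, had a log2 fold change of 0.44 (SE 0.19, edgeR adjusted p = 0.906), Plxnb1 of 0.16 (SE 0.11, edgeR adjusted p = 0.941), and Plxnb2, the most abundant at 257 CPM, of 0.13.

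Of 19 ephrins and Eph receptors, 0 were called, 12 were above and 7 below 0, and the median was 0.10. Epha7 was at 25.2 CPM in WT and 35.2 CPM in KO (log2 fold change 0.48, SE 0.13, edgeR adjusted p = 0.906), and Ephb4 had a log2 fold change of 0.30 (SE 0.12, edgeR adjusted p = 0.906). Epha2, the most abundant at 117 CPM, had 0.15. In this list, 4 of 19 genes had KO libraries that were all above the WT libraries, beside 6.23% of all genes tested.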
